A study of Homo sapiens with 8 samples.

Results

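Transcripts of 10 genes that are widely named as targets of miR-155 were followed in L1236 cells: BACH1, SOCS1, INPP5D, CEBPB, TP53INP1, FOXO3, PICALM, RHEB, TAB2 and CSF1R. Their probes were found by matching the accession of every array probe to a gene symbol. This gave 14 probes for the 10 genes, out of 41000 probes on the array and 16557 genes that could be named. After filtering on detection and on the difference between dyes, 13 of the 14 probes and 9 of the 10 genes were kept, next to 22471 probes and 11203 genes in all. TP53INP1 was the gene lost, and its values are given separately.

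L1236 is a cell line established from Hodgkin lymphoma, in which malignant B cells make large amounts of miR-155. One cell population carried the empty pMSCV-PIG retroviral vector (EV) and the other carried the same vector with a miR-155 sponge, and both were sorted for the GFP that this vector encodes. From each population total RNA (T) and RNA precipitated with an antibody against Argonaute 2 (Ago2-IP, here IP) were labelled with Cy3 and with Cy5 and hybridised to 4 two-colour arrays, which gave 8 channels. Each of the 4 groups (EV T, EV IP, sponge T and sponge IP) was therefore 1 RNA sample measured with 2 dyes, and ± gives the SD over both dyes, or over both dye orientations for a ratio. Differences between sponge and EV cells have no replicate culture behind them and were not tested. IP and T of a population shared arrays, but EV and sponge cells never did, so array and population cannot be told apart. The level of miR-155 and the sponge transcript were not analysed here.

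Argonaute 2 carries a microRNA and pairs its seed, the bases near the 5′ end, with matching sites that lie mostly in the 3′ untranslated regions of mRNAs. Bound transcripts are translated less or degraded, so a target can be enriched in an Ago2 precipitate and low in total RNA. A sponge is an introduced transcript that carries repeated sites and occupies the microRNA in place of cellular mRNAs. The mature sequences of both arms of miR-155 are shown because pairing with the seed is what links these genes to the microRNA. They are from RefSeq (GRCh38.p14, chromosome 21, plus strand, 25573983 to 25574006 for the 5p arm and 25574022 to 25574043 for the 3p arm), 5′ to 3′, with the seed (bases 2 to 8) in capitals.
hsa-miR-155-5p: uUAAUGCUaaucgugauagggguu
hsa-miR-155-3p: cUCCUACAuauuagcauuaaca
The 5p arm is the one known as the main product in B cells. None of the other sequences among the 2370 mature human miRNAs in this table shared its seed (0 matches). A transcript site complementary to the seed reads AGCATTA in DNA letters. Such sites were not searched in the 10 transcripts.

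Between 54.1% (sponge T in Cy5) and 65.7% of spots were well above background in the 8 channels, no spot was saturated, and sponge T in Cy5 stood apart as the lowest, with 61.0% or more in the other 7. In 12 of the 14 probes described here the largest gap between Cy3 and Cy5 lay in sponge T. The medians and counts of the members that rest on sponge T are therefore also given without that channel, except counts over both dyes or orientations, which need it. The 6 markers of Hodgkin and Reed-Sternberg cells (TNFRSF8, CCL17, CCL22, IRF4, TRAF1 and FSCN1) all passed the background flag in each of the 4 T channels. Among B cell markers, CD79A and CD79B did as well and MS4A1 did in none. Some markers of other cell types also passed it in each T channel, namely CD2 and CD3E of 3 T cell genes and CD14 of 3 monocyte genes, whereas CD3D, LYZ and CD163 were in none. All samples came from the L1236 cell line. The source of the signal of the markers that passed, and of CSF1R, a gene of monocytes and macrophages, was not tested.

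To see whether these transcripts were enriched in the Ago2 precipitate, IP was compared with T in each population. No control precipitate was on these arrays, and IP and T were normalised together. The ratio is thus relative to other transcripts and does not by itself show which are bound. Of the 9 kept genes, 7 had an IP/T ratio of 2 or more in EV cells (SOCS1, BACH1, TAB2, PICALM, CEBPB, RHEB and FOXO3), while 18.1% of all kept genes did. In sponge cells it was the same 7 genes, against 17.7% of all genes. The 9 genes had a median log2 IP/T of 2.66 ± 0.11 with EV and 2.41 ± 0.29 with the sponge, and the median of all genes was -0.16 and -0.14. Without sponge T in Cy5 the sponge median of the 9 genes was 2.23, and 7 of 9 genes still had a ratio of 2 or more. Of the kept probes, CSF1R (0.43) and the dimmer FOXO3 probe (1.22) then moved by more than their SD. Background correction by normexp, in 2 settings, gave EV ratios lower by more than their SD for BACH1, FOXO3, PICALM, CSF1R and TP53INP1. The dimmer SOCS1 probe was likewise lower. The values under normexp are given with each of these genes.

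**Figure D1:**
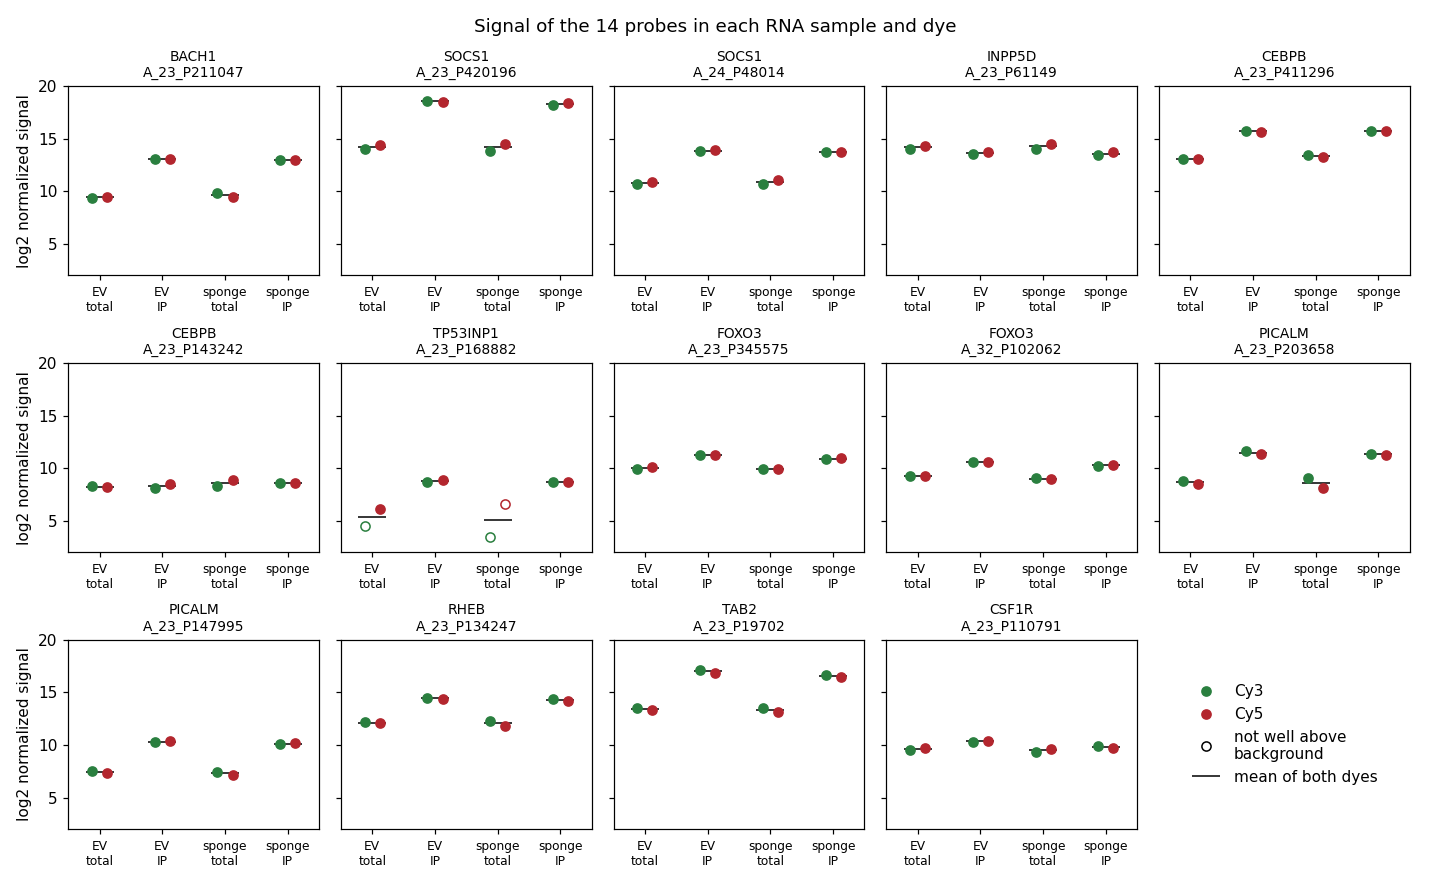
Log2 normalised signal (y axis) of each of the 14 probes in EV T, EV IP, sponge T and sponge IP (x axis), with Cy3 in green, Cy5 in red, open circles for channels not well above background and a bar at the mean of both dyes. IP lies far above T in both populations for BACH1, SOCS1, PICALM, RHEB, TAB2 and the first CEBPB probe, and below T for INPP5D, and the dyes of sponge T are the most spread.

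SOCS1, an inhibitor of JAK-STAT signalling downstream of cytokine receptors, had the highest IP/T of the members. Its brighter probe (A_23_P420196, chromosome 16) had log2 signals of 14.03 in Cy3 and 14.36 in Cy5 in EV T, 18.58 and 18.51 in EV IP, 13.87 and 14.49 in sponge T, and 18.20 and 18.37 in sponge IP. Both IP samples were thus far above both T samples with either dye, and the T samples overlapped. This gave a log2 IP/T of 4.35 ± 0.18 with EV (20.4-fold) and 4.11 ± 0.56 with the sponge (17.2-fold), and 99.6% of all genes lay below SOCS1 in EV cells. The dimmer probe for the same accession (A_24_P48014) gave 3.07 ± 0.18 (8.40-fold) and 2.92 ± 0.26 (7.56-fold). Both SOCS1 probes thus placed IP above T but differed in the size of the ratio. After normexp background correction the EV ratio of the dimmer probe was 7.04-fold with quantile normalisation and 7.09-fold with loess and Aquantile.

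INPP5D encodes SHIP1, a lipid phosphatase of blood cells that opposes PI3K signalling. It was the kept member with more signal in T than in IP. Its probe (A_23_P61149, chromosome 2) had 14.04 (Cy3) and 14.30 (Cy5) in EV T, 13.55 and 13.73 in EV IP, 14.07 and 14.55 in sponge T, and 13.45 and 13.73 in sponge IP. All 4 T channels lay above all 4 IP channels. The ratio on the log2 scale was -0.52 ± 0.32 with EV and -0.71 ± 0.54 with the sponge, which is 1.44-fold and 1.64-fold more in T. With 36.2% of all genes below it in EV cells, INPP5D sat in the lower part of the distribution. Its paralog INPPL1 (SHIP2) had a log2 IP/T of -0.74 ± 0.03 and -0.75 ± 0.15.

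TAB2, an adaptor that links TRAF6 to the kinase TAK1 on the way to NF-κB, was among the most enriched. Its probe (A_23_P19702, chromosome 6) had 13.49 (Cy3) and 13.36 (Cy5) in EV T, 17.14 and 16.87 in EV IP, 13.53 and 13.18 in sponge T, and 16.62 and 16.50 in sponge IP. The T samples overlapped, and both channels of sponge IP were lower than both channels of EV IP. EV cells had a log2 IP/T of 3.58 ± 0.29 (11.95-fold) and sponge cells 3.21 ± 0.33 (9.23-fold). The paralogs TAB1 and TAB3, which act in the same kinase complex, had log2 IP/T values of -0.67 ± 0.002 and 0.05 ± 0.04 in EV cells.

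RHEB is the small GTPase that activates mTORC1. Its probe (A_23_P134247, chromosome 7) had 12.15 (Cy3) and 12.06 (Cy5) in EV T, 14.50 and 14.40 in EV IP, 12.24 and 11.85 in sponge T, and 14.41 and 14.16 in sponge IP. IP was above T throughout, by 2.35 ± 0.13 on the log2 scale (5.09-fold) with EV and 2.24 ± 0.45 (4.74-fold) with the sponge. RHEBL1, its closest relative, had 4.27 ± 0.08 and 4.19 ± 0.08.

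Among the transcription factors, BACH1, a repressor of haem oxygenase and other oxidative stress genes, had the highest ratio. BACH1 (A_23_P211047, chromosome 21) had 9.39 (Cy3) and 9.44 (Cy5) in EV T, 13.06 and 13.04 in EV IP, 9.81 and 9.48 in sponge T, and 12.98 and 13.02 in sponge IP. Signals in IP were nearly the same in both populations, and both channels of sponge T were above both channels of EV T. IP exceeded T by 3.63 ± 0.02 on the log2 scale (12.4-fold) with EV and by 3.36 ± 0.21 (10.2-fold) with the sponge. After normexp background correction the EV ratio was 6.95-fold with quantile normalisation and 6.91-fold with loess and Aquantile. The paralog BACH2 had 1.40 ± 0.11 and 1.37 ± 0.21.

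CEBPB, a leucine zipper factor that drives inflammatory and myeloid genes, was read by probes that disagreed. The probe with the higher signal (A_23_P411296, chromosome 20) was printed as 10 spots, whose SD within a channel ranged from 0.03 to 0.11 on the log2 scale. It had 13.07 (Cy3) and 13.06 (Cy5) in EV T, 15.77 and 15.69 in EV IP, 13.44 and 13.23 in sponge T, and 15.76 and 15.73 in sponge IP, so that IP did not differ by more than its dyes while both sponge T channels lay above both EV T channels. The resulting log2 IP/T was 2.66 ± 0.07 (6.33-fold) for EV and 2.41 ± 0.17 (5.33-fold) for sponge cells. The other probe for the same accession (A_23_P143242) had 8.25 and 8.20 in EV T, 8.10 and 8.49 in EV IP, 8.30 and 8.90 in sponge T, and 8.63 and 8.57 in sponge IP, with a log2 IP/T of 0.07 ± 0.24 and 0.00 ± 0.39. There the IP and T channels overlapped in both populations, although all 8 channels were well above background. Counts over genes use the brighter probe.

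FOXO3, a forkhead factor that AKT keeps out of the nucleus, had a more modest enrichment, close to a ratio of 2 by both of its probes. The brighter probe (A_23_P345575, chromosome 6) had 9.96 (Cy3) and 10.06 (Cy5) in EV T, 11.22 and 11.24 in EV IP, 9.87 and 9.87 in sponge T, and 10.84 and 10.98 in sponge IP. Sponge IP was below EV IP with both dyes, and sponge T was below EV T by less. Its log2 IP/T came to 1.22 ± 0.09 (2.33-fold) with EV and 1.04 ± 0.10 (2.06-fold) with the sponge. The other probe (A_32_P102062) gave 1.31 ± 0.01 (2.48-fold) and 1.26 ± 0.03 (2.39-fold). With both normexp settings the EV ratio was below 2, at 1.84-fold and 1.99-fold for the brighter probe and 1.57-fold and 1.78-fold for the other. A near-identical copy of this gene, FOXO3B, exists in the human genome, and signal from it cannot be told apart here. FOXO1 and FOXO4 had log2 IP/T values of 0.32 ± 0.19 and 0.48 ± 0.43 in EV cells.

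PICALM, an adaptor of clathrin-mediated endocytosis, had IP above T by both probes. The brighter one (A_23_P203658, chromosome 11) had 8.80 (Cy3) and 8.48 (Cy5) in EV T, 11.59 and 11.35 in EV IP, 9.08 and 8.14 in sponge T, and 11.38 and 11.24 in sponge IP. The dyes of sponge T differed by 1.92-fold, close to the limit of 2-fold set by the dye filter. Log2 IP/T came to 2.83 ± 0.39 (7.12-fold) with EV and 2.70 ± 0.76 (6.48-fold) with the sponge. The dimmer probe (A_23_P147995) gave 2.88 ± 0.03 (7.38-fold) and 2.85 ± 0.18 (7.21-fold). With both normexp settings the EV ratios were smaller and differed between the probes, at 3.34-fold and 3.75-fold for the brighter and 2.38-fold and 2.57-fold for the dimmer probe.

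CSF1R, the receptor tyrosine kinase for CSF1 that is normal to macrophages and is also made ectopically by Hodgkin lymphoma cells, did not reach an IP/T of 2. Its probe (A_23_P110791, chromosome 5) had 9.53 (Cy3) and 9.67 (Cy5) in EV T, 10.32 and 10.36 in EV IP, 9.36 and 9.61 in sponge T, and 9.92 and 9.67 in sponge IP. EV IP was the highest sample, and the lower sponge IP channel was at the level of the higher EV T channel. The log2 IP/T was 0.74 ± 0.13 (1.67-fold) for EV and 0.31 ± 0.0039 (1.24-fold) for sponge cells. With single dyes the sponge value was 0.56 (Cy3) and 0.06 (Cy5), far wider apart than that SD. With both normexp settings the sponge value was lower, at 0.15 and 0.16, and so was the EV value, at 0.42 and 0.49.

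TP53INP1, a gene induced by p53 under stress, had no T channel well above background in sponge cells. Its probe (A_23_P168882) had 4.48 (Cy3) and 6.14 (Cy5) in EV T, 8.71 and 8.88 in EV IP, 3.45 and 6.63 in sponge T, and 8.66 and 8.66 in sponge IP. The background flag was passed by 1 of 2 T channels of EV cells, by 0 of 2 of sponge cells and by both IP channels of each. The sponge T dyes differed by 9.10-fold, which is why the probe was not kept. The EV log2 IP/T of 3.48 ± 1.29 rests on a T channel below that flag, and it was 0.65 with both normexp settings (1.57-fold). In sponge cells IP was 1.44-fold above T after normexp, loess and Aquantile, at measured T signals that were not well above background. A floor for T at the dimmest signal well above background left this value unchanged.

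**Figure D2:**
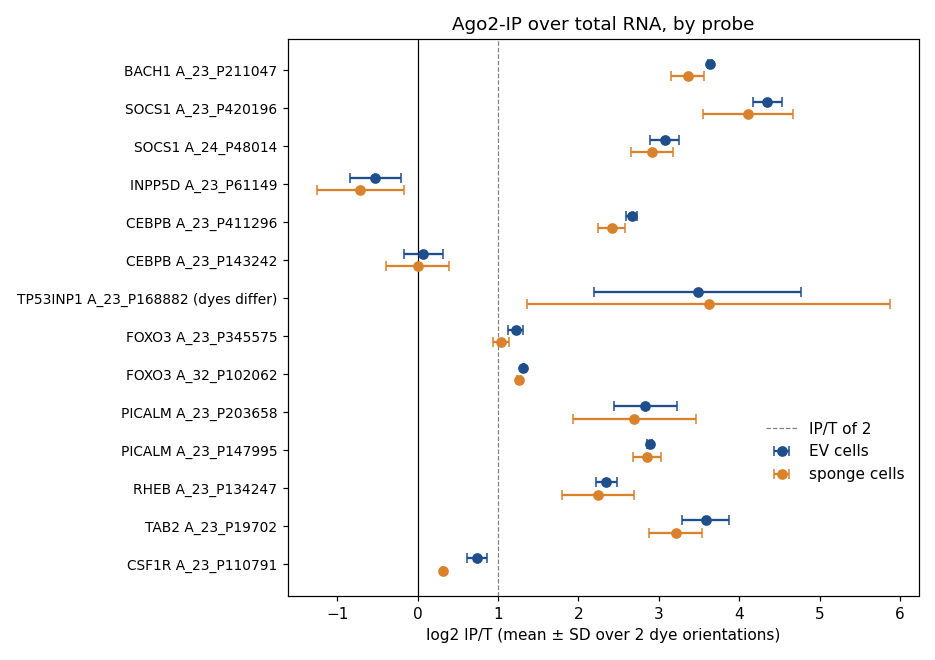
Log2 IP/T (x axis) of each of the 14 probes (y axis) in EV cells (blue) and sponge cells (orange), as mean ± SD over 2 dye orientations, with a dashed line at a ratio of 2. Of the 13 kept probes, 10 lie right of the dashed line in both populations, while INPP5D lies left of 0 and the TP53INP1 value, which was not kept, has the widest bars.

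The ratios of EV and sponge cells were also fitted together, as 2 pairs, with limma against a log2 IP/T of 0. These p-values measure only the spread between the 2 populations. By this test 12 of the 13 kept probes differed from 0 (adjusted p from 2.52e-12 for SOCS1 to 0.00111 for CSF1R), and the dimmer CEBPB probe did not (adjusted p = 0.763). With Cy5 labels alone CSF1R no longer passed (log2 IP/T 0.38, adjusted p = 0.0832 in limma), and over its other alternatives the adjusted p ran from 2.18e-07 to 0.0174. Without sponge T in Cy5 the count was again 12. At the level of genes 8 of 9 were above 0 and INPP5D was below (adjusted p = 0.000115). Of all genes, 36.1% were called above 0, 46.3% below and 82.4% either way, so being called says little about a gene.

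In EV cells, with each gene at its brighter probe, the order from the top was SOCS1 (99.6% of all genes below it), BACH1 (99.2%), TAB2 (99.1%), PICALM (97.6%), CEBPB (97.2%), RHEB (95.7%), FOXO3 (85.5%), CSF1R (76.6%) and INPP5D (36.2%). BACH1 and TAB2, and likewise PICALM and CEBPB, differed by less than the SD over dye orientations of the noisier gene of each pair. The other steps were larger than that spread, but the order was not kept by other probes or settings: the dimmer SOCS1 probe (3.07) was below BACH1 and TAB2, and PICALM was below RHEB with both normexp settings (1.74 against 2.35, and 1.91 against 2.37).

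To see whether the relative enrichment of these transcripts in IP differed with the sponge, IP/T was compared between populations. All 9 kept genes had a lower mean IP/T in sponge cells than in EV cells, by a median of -0.24 ± 0.10 on the log2 scale, against 0.0088 for all genes. A lower mean was found for 48.2% of all genes. The values ran from -0.10 (RHEB) to -0.43 (CSF1R). In 6 of the 9 (BACH1, INPP5D, CEBPB, FOXO3, TAB2 and CSF1R) the ratio was lower in both dye orientations, which held for 29.8% of all genes, and in 0 of 9 it was higher in both, which held for 33.6%. These differences were small: 0 of 9 met the study's criterion of an IP/T of 2 or more in EV cells that was lower by 2-fold or more in sponge cells, which 9 genes (0.0803%) met in all. The central 95% of all genes spanned -0.44 to 0.46, and no member lay outside it.

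CSF1R had the largest difference, with log2 IP/T lower by -0.43 ± 0.13 (-0.52 where IP carried Cy5 and -0.34 where it carried Cy3), or 1.35-fold. Of all genes, 2.73% had a lower value. TAB2 followed with -0.37 ± 0.04 (-0.40 and -0.34), or 1.30-fold, with 3.94% of genes below it. For these 2 genes both orientations gave the same sign. With the same dye on both sides the values lay farther apart, at -0.23 in Cy3 and -0.63 in Cy5 for CSF1R and at -0.56 and -0.19 for TAB2. After normexp with quantile normalisation CSF1R was at -0.27 and TAB2 at -0.36. After normexp, loess and Aquantile they were at -0.33 and -0.36. CEBPB came to -0.25 ± 0.10 (-0.32 and -0.18) by the brighter probe and -0.07 ± 0.15 by the other, whose orientations had opposite signs. BACH1 came to -0.28 ± 0.23 (-0.44 and -0.11). FOXO3 came to -0.18 ± 0.01 by the brighter probe and -0.06 ± 0.03 by the other, and the single dyes of the brighter probe gave -0.29 (Cy3) and -0.07 (Cy5), far wider than that SD. For CEBPB and BACH1 the single dyes gave -0.37 and -0.49 in Cy3 and -0.13 and -0.06 in Cy5.

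For the remaining genes, at the probe taken for the gene, the difference was not larger than the spread between dye orientations. SOCS1 had -0.24 ± 0.38 (0.03 where IP carried Cy5 and -0.51 where it carried Cy3) by the brighter probe and -0.15 ± 0.08 by the dimmer one. INPP5D had -0.19 ± 0.23, PICALM -0.14 ± 0.37 and -0.03 ± 0.20 by its probes, and RHEB -0.10 ± 0.32. In SOCS1, PICALM and RHEB the orientations of the brighter probe differed in sign, and so did the single dyes for PICALM (-0.50 in Cy3 and 0.22 in Cy5). The TP53INP1 value of 0.14 ± 0.96 rests on T channels that were mostly not well above background.

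Without sponge T in Cy5, 7 of the 9 genes had a lower IP/T in sponge cells and the median was -0.31. In that setting the dyes of T are not balanced, since EV T keeps both. TAB2 was then at -0.55, CSF1R at -0.31, BACH1 at -0.44, CEBPB at -0.35 and PICALM at -0.61, and the exceptions were SOCS1 (0.07, and 0.04 by its dimmer probe) and INPP5D (0.05). With the same dye on both sides, 9 of 9 genes were lower in Cy3 (median -0.29) and 8 of 9 in Cy5 (median -0.13).

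**Figure D3:**
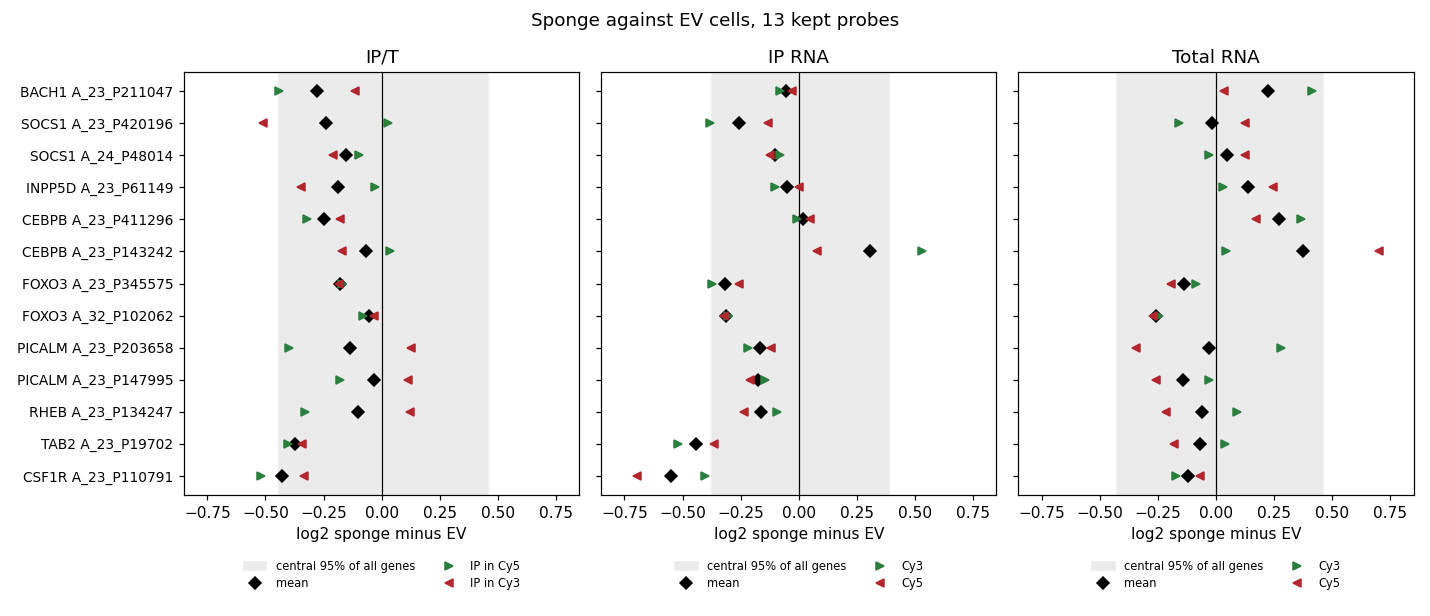
Sponge minus EV on the log2 scale (x axes) for IP/T, IP RNA and total RNA of the 13 kept probes (y axis), with the mean as a diamond, each dye or dye orientation as a triangle, and the central 95% of all genes shaded. All 13 diamonds for IP/T lie below 0, TAB2 and CSF1R lie left of the shading in IP RNA, and the triangles are farthest apart in IP/T and total RNA.

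A lower IP/T can come from less transcript in IP or more in T, so these were read apart. In IP, 8 of the 9 genes were lower in sponge cells (49.4% of all genes), with a median of -0.17 ± 0.06, and the median of all genes was 0.0030. In 7 of the 9 (BACH1, SOCS1, FOXO3, PICALM, RHEB, TAB2 and CSF1R) IP was lower with both dyes, against 36.4% of all genes, and in 0 of 9 it was higher with both, against 37.6%. CSF1R was at -0.55 ± 0.21 (1.46-fold lower; -0.40 in Cy3 and -0.69 in Cy5) and TAB2 at -0.44 ± 0.11 (1.36-fold lower; -0.52 and -0.36). These lay below the central 95% of all genes, which spanned -0.37 to 0.39. FOXO3 was at -0.32 ± 0.08 by the brighter probe and -0.31 ± 0.01 by the other, and SOCS1 at -0.26 ± 0.18 and -0.10 ± 0.03. PICALM (-0.17 ± 0.07 and -0.18 ± 0.04), RHEB (-0.16 ± 0.10) and TP53INP1 (-0.13 ± 0.12) had smaller values of the same sign with both dyes. BACH1 (-0.05 ± 0.04), INPP5D (-0.05 ± 0.07) and CEBPB (0.02 ± 0.04 by the brighter probe) were nearly level, while the dimmer CEBPB probe had 0.31 ± 0.32 (0.53 in Cy3 and 0.08 in Cy5). No member differed 2-fold in IP between the populations, as 0.152% of all genes did.

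In T, where a target released from repression would be found at a higher level, the 9 genes had no common direction. Their median was -0.03 ± 0.08, against -0.01 for all genes, and 6 of 9 were lower in sponge cells (52.4% of all genes). T was higher with both dyes in 3 of 9 genes, against 29.3% of all genes, and lower with both in 2 of 9, against 31.9%. The 3 higher genes were CEBPB (0.27 ± 0.14, and 0.37 ± 0.46 by its dimmer probe), BACH1 (0.22 ± 0.27) and INPP5D (0.14 ± 0.15), and only for CEBPB, at its brighter probe, was the mean larger than its SD. The 2 lower genes were FOXO3 (-0.14 ± 0.08, and -0.26 ± 0.02 by the other probe) and CSF1R (-0.12 ± 0.08). TAB2 (-0.07 ± 0.15), RHEB (-0.06 ± 0.22), PICALM (-0.03 ± 0.44) and SOCS1 (-0.02 ± 0.20) had means below their SDs. None differed 2-fold in T, as 0.312% of all genes did. In bulk RNA, fewer cells with a transcript and less of it per cell cannot be told apart. Without sponge T in Cy5 the median was 0.11 and 4 of 9 genes were lower, with PICALM at 0.44, TAB2 at 0.11, SOCS1 at -0.33, INPP5D at -0.10 and CSF1R at -0.24.

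Seen gene by gene, the lower IP/T of TAB2 came with lower IP and a difference in T within its SD. That of CEBPB (brighter probe) came with higher T and level IP. BACH1 had level IP too, but its T was higher by 0.41 in Cy3 and 0.04 in Cy5, a mean within its SD. FOXO3 and CSF1R were lower in both IP and T, more so in IP. The dyes of sponge T were 1.15-fold apart for CEBPB and 1.26-fold apart for BACH1. In 6 of the 9 genes IP was lower with both dyes and differed by more than T did, which held for 22.7% of all genes.

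Genes with high IP/T in EV cells had on the whole a lower IP/T in sponge cells. Setting aside the 7 enriched members, 2026 genes had an IP/T of 2 or more in EV cells, a class chosen on EV values that also enter the difference. Their median difference in log2 IP/T was -0.09 and 1379 of them were below 0. IP/T was lower in both orientations for 46.8% of these genes and for 4 of the 7 enriched members. IP was lower with both dyes for 66% of them and for 6 of the 7. Their median difference in IP was -0.12, next to -0.17 for the 9 members. The direction of the members was thus shared by most Ago2-enriched genes in these arrays.

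A second list held 34 other genes named as miR-155 targets, of which 33 were on the array by accession and 28 were kept. SPI1, HIVEP2, AGTR1 and CTLA4 failed the detection filter and IKBKE the dye filter. Of the 28, 14 had an IP/T of 2 or more with EV and 13 with the sponge, against 18.1% and 17.7% of all genes. Their median log2 IP/T was 1.01 ± 0.12 and 0.88 ± 0.33, lower than that of the 9 members. Without sponge T in Cy5 the sponge median was 0.79. The highest were WEE1 (4.67 ± 0.21 with EV and 4.46 ± 0.27 with the sponge), a kinase that holds back mitosis, HBP1 (3.77 ± 0.39 and 3.79 ± 0.36), a transcriptional repressor, and MYB (3.29 ± 0.12 and 3.07 ± 0.07), a transcription factor of blood progenitors. Among the lowest were the transcription factors CUX1 (-1.04 ± 0.20 and -1.18 ± 0.30) and MAF (-0.72 ± 0.08 and -0.80 ± 0.02).

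Between the populations, the 28 genes differed by a median of -0.08 ± 0.08 in log2 IP/T, and by -0.22 without sponge T in Cy5. The difference was below 0 for 20 of 28, against 48.2% of all genes. IP/T was lower in both orientations for 13 and higher in both for 3, against 29.8% and 33.6% of all genes. IP was lower with both dyes for 18 and higher with both for 7, against 36.4% and 37.6%. Of the 14 with an EV ratio of 2 or more, 9 had a lower IP/T in both orientations and 12 a lower IP with both dyes. Among the 2026 enriched genes outside the members these shares were 46.8% and 66%. FBXO11, a ubiquitin ligase subunit that targets BCL6, had an IP/T difference of -0.34 ± 0.10. None of the 28 differed 2-fold between the populations in T or in IP, and none met the criterion of enrichment with a 2-fold lower ratio.

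Paralogs of the members gave a set of related genes that are not named as targets on either list. TAB1, a partner of TAB2 and not its paralog, was listed and counted with them. Of the 19 listed genes 13 were kept. CEBPD, SNAP91, KIT, FLT3 and PDGFRB failed the detection filter, and PDGFRA failed the dye filter. Their median log2 IP/T was 0.48 ± 0.24 with EV and 0.67 ± 0.60 with the sponge. In EV cells 5 of 13 had a ratio of 2 or more (RHEBL1, SOCS3, CISH, BACH2 and TP53INP2), against 18.1% of all genes. SOCS3, like SOCS1 an inhibitor of cytokine signalling, had 3.36 ± 0.04 and 3.26 ± 0.33, and CISH had 2.29 ± 0.15 and 2.23 ± 0.27. CEBPA lay at the other end with -2.15 ± 0.24 and -2.52 ± 0.41. Without sponge T in Cy5 the sponge median was 0.30. The median difference in log2 IP/T was -0.04 ± 0.07 and had no stable sign (0.03 in either dye alone). It was below 0 for 8 of 13 genes, against 48.2% of all genes. IP/T was lower in both orientations for 3 and higher in both for 3, against 29.8% and 33.6% of all genes. TP53INP2 was higher by 0.67 ± 0.15. High IP/T was therefore found in paralogs too. The share below 0 was not tested against that of the members. IP of the paralogs was lower with both dyes for 5 and higher with both for 7, against 36.4% and 37.6% of all genes. Of the 5 with an EV ratio of 2 or more, 1 had a lower IP/T in both orientations and 1 a lower IP with both dyes. These shares were not tested either. The median difference of the paralogs was 0.02 ± 0.01 in IP and -0.08 ± 0.05 in T.

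**Figure D4:**
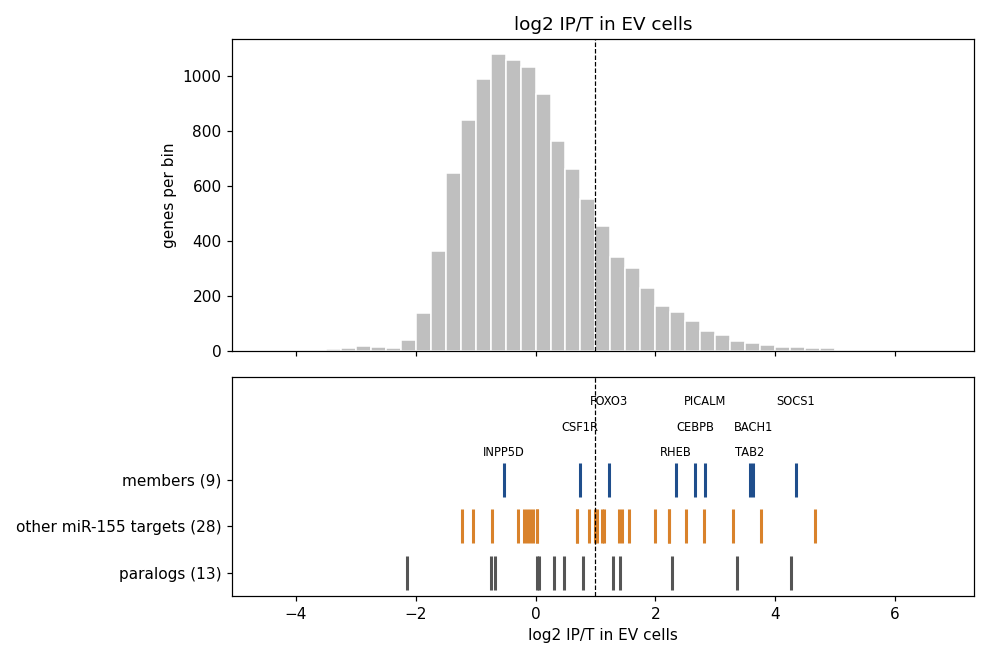
Upper part: number of kept genes (y axis) per bin of log2 IP/T in EV cells (x axis). Lower part, on the same x axis: each kept gene of the 9 members (named), the 28 other miR-155 targets and the 13 paralogs as a tick, with a dashed line at a ratio of 2. Of the members, 6 lie between 2.35 and 4.35, where few genes lie, and the other lists spread from below 0 to above 4.

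The typical profile of the 9 members over the 8 channels was high in both IP samples and low in both T samples. The named genes with the most similar profile, by Euclidean distance of centred log2 signals over 8 channels, included DUSP1 (distance 0.157) and TRUB1 (0.194). Their log2 IP/T in EV cells was 2.53 and 2.64, and in sponge cells 2.40 and 2.41. In difference between the populations they were at -0.13 and -0.23.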

How the data were processed

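L1236 Hodgkin lymphoma cells with empty vector or miR-155 sponge were profiled in T and Ago2-IP on Agilent two-colour arrays (4 arrays, 1 slide, 1 scan). The files of an array's 2 samples were identical, so 4 distinct arrays were analysed. Samples were grouped by GEO labels (cell population and RNA fraction). Per the file headers, the authors extracted spot intensity with Agilent Feature Extraction 10.7.3.1 (their processing notes name 10.5.1.1), which subtracts background and corrects for dye. Per the file headers and values, a series table gives log2 signals that the authors normalised, for 22282 probes. Each column kept the rank order of its own channel here (Spearman's rho across probes 1), with a median distance of at most 0.00405 from the values used here, and was an alternative only. Its column medians ran from 9.85 to 9.90.

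Control spots and outlier-flagged spots were left out, spots of a probe averaged, and log2 processed signals quantile normalised over the 8 channels. Of 41000 probes 60 had no value in some channel. A probe was kept if well above background in at least 4 of 8 channels (25827 probes) and if Cy3 and Cy5 lay within 2-fold in each RNA. Dyes were then averaged. Each gene was represented by the brightest of its kept probes. Symbols came from RefSeq accessions (GRCh38.p14, 23958 probes), used for names and chromosomes only, since the array design follows another build. For TP53INP1 in sponge cells, T was floored at the dimmest signal well above background, after normexp (offset 50), loess and Aquantile. The measured T was above that floor and stayed unchanged. The normexp settings used median spot signals, because mean signals were not in the files used. IP/T over both populations was fitted with limma 3.58.1 (lmFit and eBayes on 2 ratios per probe, Benjamini-Hochberg adjusted p under 0.05) in R 4.3.3, tested on simulated data. Other steps ran in Python 3.11.15 with numpy 2.4.6 and pandas 2.3.3, and figures in matplotlib 3.10.9.

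All members were named, with the 3 highest and 3 lowest of the other targets by EV IP/T and any passing 2-fold between populations, and the 3 nearest profiles. Paralogs could be named beside their member. FBXO11, CEBPA, CISH, SOCS3 and TP53INP2 were picked after their values were seen. Some genes that these rules name are not reported here. The members, the lists and the tests were chosen with earlier results of these data known. Alternatives covered normalisation, detection, dye filter, single dyes, single orientations and the probe taken for a gene. The number of arrays limits the precision.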

Additional observations from a re-analysis of the deposited data

How the results depend on the processing

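Across the alternatives, 7 to 10 member genes had a lower IP/T in sponge cells, 7 to 9 a lower IP, and 6 to 8 an IP/T of 2 or more in either population. The member median of the difference in log2 IP/T stayed below 0 (-0.33 to -0.13), as did that of IP (-0.22 to -0.13). With single dyes the IP/T difference ranged from -0.29 (Cy3) to -0.13 (Cy5). Background correction by normexp lowered the median log2 IP/T, to 2.04 with quantile normalisation and 2.14 with loess and Aquantile in EV cells, and to 1.92 and 1.94 in sponge cells, and averaging the probes of a gene gave 2.35 in EV cells. T was lower in 3 of the members, not 6, with arrays of IP in Cy5 alone, and in 3 to 5 with single dyes, and its median was 0.11 without sponge T in Cy5, a setting chosen after seeing the data. Of the kept probes, the IP/T difference was above 0 in some settings for SOCS1 (brighter probe, 0.03 with IP in Cy5 alone and 0.07 without sponge T in Cy5), PICALM (0.13 and 0.11 with IP in Cy3 alone, 0.22 and 0.05 with Cy5 labels), RHEB (0.12 with IP in Cy3 alone), INPP5D (0.05 without sponge T in Cy5) and the dimmer CEBPB probe (-0.62 in Cy5 to 0.49 in Cy3). The sign also turned for log2 IP/T of the dimmer CEBPB probe over both populations (-0.19 with IP in Cy3 alone, -0.020 with Cy5 labels) and for the IP/T difference of the dimmer SOCS1 probe (0.039 without sponge T in Cy5). For paralogs the median IP/T difference turned to 0.03 (normexp and quantile, and each dye alone) and 0.07 (arrays with IP in Cy3), the IP difference turned to -0.019 (probe of highest IP/T), -0.029 (normexp and quantile) and -0.021 (normexp, loess and Aquantile), and the T difference, -0.08 as reported, to 0.0028 (detection in all 8 channels), 0.11 (dyes within 1.5-fold), 0.011 and 0.026 (normexp settings) and 0.050 (arrays with IP in Cy5, and Cy3 labels). The cause was not tested. No fit with a replicate block was made beyond the pairing of IP and T within a population, because each group is 1 RNA sample. The errors cover labelling and hybridisation, not cultures or precipitations.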
